A study of Mus musculus with 23 samples.

Results

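Toll-like receptors and their partners are described here through 10 genes of 24421 listed. The genes were chosen by name, but with earlier results of these data known. They are the receptor genes Tlr1, Tlr2, Tlr4, Tlr6, Tlr7, Tlr8, Tlr9 and Tlr13, the adaptor gene Myd88 and the co-receptor gene Cd14. All 10 were found in both tables and all 10 passed the filter on low values. RNA was sequenced by a poly-A method from immature myeloid cells, labelled MDSCs (myeloid-derived suppressor cells), which were taken from mouse peripheral blood with magnetic beads. The CT26 libraries, from a colon carcinoma model in mice of the strain label Balbc, were made at days 0, 4, 8 and 11, with 3 libraries a day. The B16 libraries, from a melanoma model in mice of the strain label C57bl, were made on the same days, with 3 libraries a day except day 4, which had 2. Strain and tumour differ together, so the model and the strain cannot be told apart, and day 0 is the baseline within each model.

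Toll-like receptors are membrane proteins that recognise conserved parts of microbes and, in some cases, molecules from damaged cells. Tlr1, Tlr2, Tlr4 and Tlr6 act at the cell surface, where Tlr2 pairs with Tlr1 or Tlr6 to bind lipopeptides and Tlr4 binds lipopolysaccharide handed over by Cd14. Tlr7, Tlr8, Tlr9 and Tlr13 sit in endosomes and recognise nucleic acids. Every one of these receptors can signal through the adaptor Myd88 to NF-kappa B and interferon regulatory factors, and neutrophils and monocytes are among the cells that carry them.

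Promoters are shown for Tlr1 and Tlr8, which had the largest rises in CT26 and B16, and for Tlr6 and Myd88, which hold the interferon-stimulated response element core (GAAANNGAA). They are RefSeq sequences of build GRCm38.p6, 250 bases before to 50 after the annotated start, 5′ to 3′ on the strand of the gene. Capitals mark matches to that element or to the core of the PU.1 site (GAGGAA), on either strand.
Tlr1 (chr5:64933509-64933808, minus strand): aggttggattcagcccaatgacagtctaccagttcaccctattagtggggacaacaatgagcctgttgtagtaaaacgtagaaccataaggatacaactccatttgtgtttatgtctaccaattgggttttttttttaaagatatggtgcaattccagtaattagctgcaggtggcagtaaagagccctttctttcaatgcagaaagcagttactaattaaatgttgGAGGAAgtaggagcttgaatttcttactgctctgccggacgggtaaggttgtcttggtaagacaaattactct
Tlr8 (chrX:167264280-167264579, minus strand): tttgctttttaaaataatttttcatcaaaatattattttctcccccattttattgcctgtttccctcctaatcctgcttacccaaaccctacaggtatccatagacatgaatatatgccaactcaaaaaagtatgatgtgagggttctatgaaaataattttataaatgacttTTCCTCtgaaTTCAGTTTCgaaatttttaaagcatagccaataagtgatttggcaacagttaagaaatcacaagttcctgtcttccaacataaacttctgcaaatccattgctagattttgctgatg
Tlr6 (chr5:64959117-64959416, minus strand): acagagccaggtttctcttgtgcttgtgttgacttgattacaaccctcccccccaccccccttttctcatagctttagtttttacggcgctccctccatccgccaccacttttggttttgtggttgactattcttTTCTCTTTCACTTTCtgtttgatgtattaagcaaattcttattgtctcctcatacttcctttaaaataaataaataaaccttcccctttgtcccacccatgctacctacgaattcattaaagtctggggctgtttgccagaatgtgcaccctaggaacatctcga
Myd88 (chr9:119339969-119340268, minus strand): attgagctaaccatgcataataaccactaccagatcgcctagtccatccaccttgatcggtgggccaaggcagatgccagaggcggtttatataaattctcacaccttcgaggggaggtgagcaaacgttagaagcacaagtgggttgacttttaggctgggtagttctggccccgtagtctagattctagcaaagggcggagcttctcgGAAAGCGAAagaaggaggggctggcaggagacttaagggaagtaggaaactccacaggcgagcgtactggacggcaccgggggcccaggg
The 7 genes with a promoter sequence have 9 promoters, 2 each for Tlr1 and Tlr6. The second of each, not shown, held neither the interferon element core nor the PU.1 core. The interferon element core was in 3 of the 9, 1 each of Tlr6, Tlr8 and Myd88, and in 8.56% of all 32851 promoters of the same length. In Tlr6 it occurred as a pair of overlapping matches, the first letters of which lie 115 and 109 bases before the start. No other matches overlapped. The PU.1 core was in 4 of the 9, 1 each of Tlr1, Tlr8, Tlr9 and Tlr13, and in 28.3% of all promoters. Part of the kappa B site (GGGNNTTTC) was in none of the 9 promoters of these genes and in 4.36% of all. The C/EBP letters TTGCNNCAA were in 1 promoter of Tlr6 and the AP-1 letters TGACTCA in Tlr9, against 2.08% and 5.2% of all. A match describes the letters only. Promoters of Tlr4, Tlr7 and Cd14 were not analysed here.

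Tlr1 and Tlr6 are neighbours on chromosome 5 and share coding sequence, which bears on how their reads can be placed. Of the stretches of 50 bases in the transcripts, 13.6% of those of Tlr1 and 12.3% of those of Tlr6 also occur in the other gene. Counting every gene, 15.4% of the Tlr1 stretches occur elsewhere, in 307 genes with Tlr6 among them. The longest near-identical piece spans 349 bases with 1 difference. It is shown from GENCODE transcripts on GRCm38 with 60 bases on either side of the difference, which stands in capitals.
Tlr1 (chr5:64925706-64925826, minus strand): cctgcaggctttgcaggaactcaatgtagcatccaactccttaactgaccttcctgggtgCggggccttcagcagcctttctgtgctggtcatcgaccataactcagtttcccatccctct
Tlr6 (chr5:64953997-64954117, minus strand): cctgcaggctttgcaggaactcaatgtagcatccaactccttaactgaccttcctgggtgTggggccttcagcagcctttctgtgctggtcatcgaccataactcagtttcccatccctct
How the authors treated reads that fit more than 1 gene is not given in the sources used here, so the counts of Tlr1 and Tlr6 are uncertain to that extent. Exons of Myd88 overlap the opposite-strand gene Acaa1a by 223 bases, and without a stated strand setting reads there cannot be told apart. Tlr2, Tlr7, Tlr8, Tlr9, Tlr13 and Cd14 share no stretch of 50 bases with another gene in the annotation, and in Tlr4 0.216% of stretches are shared. In GRCm38 Tlr2 lies at chr3:83836272-83841767, Tlr4 at chr4:66827584-66930284, Tlr9 at chr9:106222598-106226883, Tlr7 at chrX:167304929-167330558 and Tlr13 at chrX:106143204-106160493.

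A library held 10700000 to 14270000 normalized counts in the CT26 model and 12390000 to 15030000 in the B16 model, where a normalized count is a read count divided by 1 factor per library. Each model was normalized on its own. Neutrophil markers, which granulocytic immature myeloid cells share, were high: all 10 were present. In CT26 they summed to 507254 to 598009 at day 0, 578983 to 625838 at day 4, 718095 to 828677 at day 8 and 783936 to 999606 at day 11. In B16 the sums were 704273 to 725647, 726893 and 728942, 627307 to 664158 and 898431 to 952165 on those days, lowest at day 8 and highest at day 11. The summed levels of 10 B cell markers, all above 0, were 300.1 to 629.6 at day 11 of CT26, against 2617 to 2719 at day 0. In B16 they were 2746 to 4092 at day 11, against 4389 to 4716 at day 0. The 6 eosinophil markers summed to 1162 to 2893 at day 11 of CT26, against 10239 to 11350 at day 0, and to 2409 to 2830 at day 8 of B16, against 457 to 569 at day 0. The 6 platelet markers in B16 summed to 1610 to 6910 at day 0, 21627 and 61980 at day 4, 17859 to 44432 at day 8 and 13967 to 16879 at day 11. The 6 erythroid markers in B16, of which Hba-a1 was at 0, summed to 666.1 and 729.4 at day 4, against 50.8 to 84.1 at day 0, and to 31.4 to 102 on the later days. The 8 classical monocyte markers summed to 11559 to 19299 at day 11 of CT26, against 8195 to 8991 at day 0, and to 12651 to 13083 at day 11 of B16, against 7923 to 10299 at day 0. CT26 day 11 replicate 1 stood apart, with 8493 for the 8 tissue macrophage markers, against 1169 and 1948 in the others of its day. The B16 day 0 libraries stood apart too, with 2.57% to 3.1% of counts in the ribosomal RNA precursor Rn45s, against 0.427% to 1.05% later. The part of these in the results was not tested. In such bulk samples, fewer cells of a type and less RNA per cell cannot be told apart. The labels give biological repeats without saying whether these are separate animals, and the p-values measure the spread between libraries.

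Most of the 10 genes were higher at days 8 and 11 than at day 0 in both models. At day 8 some that were higher in CT26 were lower in B16. A gene was called when its adjusted p was under 0.05 in limma's moderated test on log2(value + 1), adjusted over 11373 genes in CT26 and 11930 in B16. In CT26, 4 of the 10 were higher and 1 lower at day 4 than at day 0, where 10.9% of all tested genes were called, 6.40% higher and 4.46% lower. At day 8, 8 were higher and 0 lower, beside 26.9% of all genes called, 15.1% higher and 11.8% lower. At day 11, 8 were higher and 1 lower, beside 50.3% called, 26.3% higher and 24.0% lower. The median log2 change of the 10 was 0.36, 0.67 and 1.05 at days 4, 8 and 11, and that of all genes 0.02, -0.01 and -0.01. In B16, 8 were higher and 0 lower at day 4, beside 35.8% called, 20.3% higher and 15.5% lower. At day 8, 6 were higher and 3 lower, beside 56.0% called, 28.6% higher and 27.3% lower. At day 11 all 10 were higher, beside 45.7% called, 23.9% higher and 21.8% lower. The medians were 0.64, 0.51 and 0.96, and those of all genes 0.01, -0.02 and -0.02. Comparisons within a model share the day 0 libraries and are not independent of each other.

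**Figure D1:**
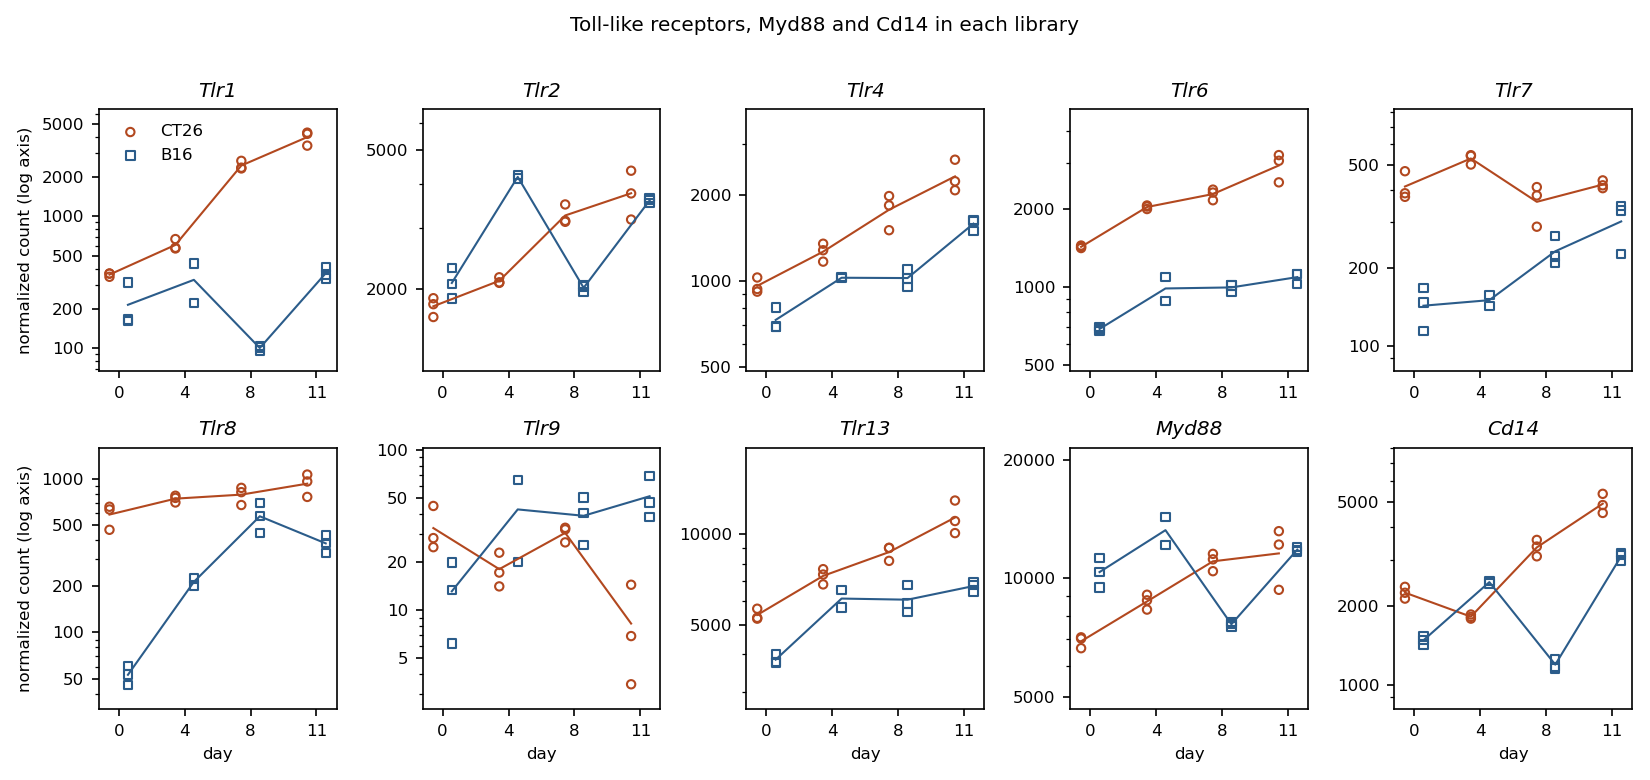
Normalized count of each gene (log axis) in each library by day, CT26 as circles and B16 as squares, with lines through the means. CT26 and B16 were normalized separately, so levels should be read within a model. In CT26 Tlr1 reached 3436 to 4311 at day 11, and in B16 Tlr8 reached 447 to 697 at day 8.

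The count for CT26 day 4 depended on single libraries. It was 3 without day 0 replicate 1, day 4 replicate 1 or day 4 replicate 3, and 9 without day 11 replicate 1, against 5 with all libraries. With reads recovered from 8 CT26 libraries, 1 of them at day 4, it was 1 with edgeR, 2 with DESeq2 and 1 with limma-voom. Of the 5 calls, that of Tlr1 was kept by all 3 and that of Tlr6 by DESeq2 alone (adjusted p = 0.0499). Those of Tlr4, Tlr13 and Cd14 were lost in all 3, with adjusted p of 0.261 to 0.319, 0.0575 to 0.196 and 0.184 to 0.239. At days 8 and 11 of CT26 the counts without day 11 replicate 1 were 8 and 9, as with it. Scaling every library to the same total moved the median change of all genes to -0.10, -0.18 and -0.29 at days 4, 8 and 11 of CT26. It moved the share of called genes that were higher to 37.9%, 29.5% and 27%, against 58.9%, 56% and 52.3% as deposited. In B16 the medians under that scaling were -0.04, 0.11 and -0.15 and the shares 50.3%, 61.2% and 36.5%, against 56.7%, 51.2% and 52.4%. The 10 genes kept their direction wherever they were called under both scalings. Tlr7 at day 8 of CT26, not called as deposited, was lower under the same-total scaling, by -0.38 on the log2 scale (adjusted p = 0.0246).

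Tlr1, which with Tlr2 recognises triacylated lipopeptides, rose at each later day in CT26, while in B16 it fell at day 8 and rose at day 11. In CT26 Tlr1 had 369, 349 and 369 normalized counts at day 0, 673, 572 and 579 at day 4, 2309, 2340 and 2636 at day 8 and 3436, 4311 and 4222 at day 11. No 2 days overlapped, and each day lay above the day before it. The log2 change against day 0 was 0.74 ± 0.10 at day 4 (SE, adjusted p = 8.6e-05), 2.74 ± 0.10 at day 8 (adjusted p = 1.46e-11) and 3.45 ± 0.10 at day 11 (adjusted p = 5.54e-14), the last a 10.9-fold rise. In B16 Tlr1 had 161, 165 and 316 at day 0, 440 and 222 at day 4, 102, 104 and 96.4 at day 8 and 411, 364 and 339 at day 11. The day 8 libraries lay below all others, the day 11 libraries lay above those of day 0, and the day 4 libraries were apart from each other, with 1 of them inside the range of day 0. The changes against day 0 were 0.62 ± 0.29 at day 4 (adjusted p = 0.122), -1.01 ± 0.26 at day 8 (adjusted p = 0.00572) and 0.86 ± 0.26 at day 11 (adjusted p = 0.0178). From day 8 to day 11 it rose by 1.87 ± 0.26 (adjusted p = 0.000183), a step that does not use day 0. The day 11 call against day 0 was lost without B16 day 0 replicate 1 (0.69, adjusted p = 0.0787), day 0 replicate 2 (0.71, adjusted p = 0.0721) or B16 day 11 replicate 1 (0.78, adjusted p = 0.0645). Day 4 was called when day 0 replicate 3 was left out (0.93, adjusted p = 0.00954), and likewise day 4 replicate 3 (1.11, adjusted p = 0.0145).

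Tlr6, the partner of Tlr2 for diacylated lipopeptides, rose in both models, in CT26 by less than Tlr1. In CT26 its libraries had 1411 to 1443 normalized counts at day 0, 1995 to 2059 at day 4, 2157 to 2370 at day 8 and 2528 to 3220 at day 11. In B16 they held 677 to 700.4 at day 0, 882 and 1090 at day 4, 959 to 1013 at day 8 and 1025 to 1124 at day 11. In each model every later library was above every day 0 library. At days 4, 8 and 11 Tlr6 changed by 0.51, 0.67 and 1.03 (log2) in CT26. The B16 changes were 0.51, 0.53 and 0.66, and over both models the SE was 0.08 to 0.09 and the adjusted p between 2.86e-08 and 0.000891. Within a library, the ratio of Tlr1 to Tlr6 per kb of exon set the 2 partners of Tlr2 side by side. In CT26 it was 0.283 ± 0.012, 0.333 ± 0.027, 1.19 ± 0.065 and 1.51 ± 0.022 at days 0, 4, 8 and 11 (SD, n = 3). In B16 it was 0.346 ± 0.14 at day 0 (n = 3), 0.391 ± 0.23 at day 4 (n = 2), 0.113 ± 0.0013 at day 8 and 0.379 ± 0.039 at day 11 (n = 3 each). Tlr6 was the more abundant of the pair per kb at days 0 and 4 of CT26 and in every B16 library, and Tlr1 at days 8 and 11 of CT26.

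**Figure D2:**
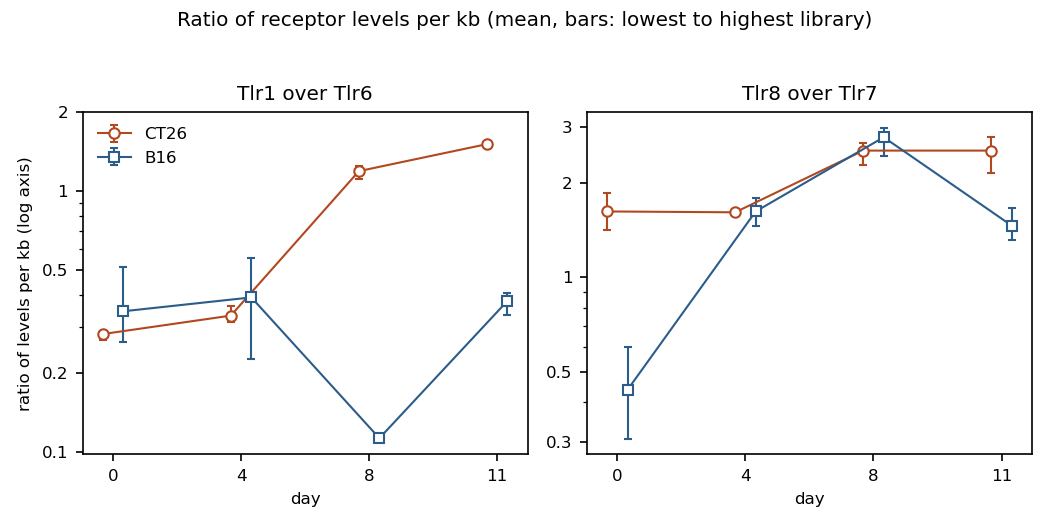
Ratio of levels per kb of exon (log axis) by day for Tlr1 over Tlr6 and Tlr8 over Tlr7, with the mean as a point and bars from the lowest to the highest library. In CT26 Tlr1 over Tlr6 passed 1 between days 4 and 8 and reached 1.51, while in B16 it was 0.113 at day 8.

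Tlr2, the shared partner of Tlr1 and Tlr6, rose by day 8 in CT26 and moved up, down and up again in B16. In CT26 it had 1880, 1807 and 1660 normalized counts at day 0, 2159, 2088 and 2081 at day 4, 3116, 3137 and 3495 at day 8 and 3163, 4369 and 3760 at day 11. Days 8 and 11 lay above days 0 and 4 and overlapped with each other. The log2 change against day 0 was 0.24 ± 0.10 at day 4 (adjusted p = 0.12), 0.87 ± 0.10 at day 8 (adjusted p = 4.75e-06) and 1.07 ± 0.10 at day 11 (adjusted p = 1.39e-07). Without day 11 replicate 1 the day 4 change was called at 0.24 (adjusted p = 0.0225), and the step from day 8 to day 11, 0.20 with adjusted p = 0.167, was called at 0.32 (adjusted p = 0.00568). In B16 Tlr2 had 1878, 2062 and 2298 at day 0, 4146 and 4241 at day 4, 1958, 2033 and 2050 at day 8 and 3593, 3649 and 3523 at day 11. Days 4 and 11 stood apart from days 0 and 8, which overlapped. The change was 1.02 ± 0.08 at day 4 (adjusted p = 4.01e-06) and 0.79 ± 0.07 at day 11 (adjusted p = 3.4e-06), and at day 8 it was -0.04 ± 0.07, with a 95% interval from -0.19 to 0.10 (adjusted p = 0.621).

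Tlr4, the lipopolysaccharide receptor, rose in steps in both models. Its CT26 libraries held 915 to 1026 normalized counts at day 0, 1166 to 1347 at day 4, 1502 to 1978 at day 8 and 2073 to 2651 at day 11, with no overlap between days. Its B16 libraries held 690.2 to 806 at day 0, 1020 and 1028 at day 4, 952 to 1095 at day 8 and 1496 to 1631 at day 11, and days 4 and 8 overlapped. The log2 change against day 0 was 0.40, 0.88 and 1.27 in CT26 (SE 0.11 each, adjusted p = 0.0258, 1.07e-05 and 4.6e-08). In B16 it was 0.49, 0.49 and 1.12 (SE 0.08 to 0.09, adjusted p = 0.000933, 0.000203 and 9.86e-07). The CT26 day 4 call was lost without day 0 replicate 1, day 0 replicate 3, day 4 replicate 1 or day 4 replicate 3, at 0.35 to 0.39 (adjusted p 0.0796 to 0.104), and with same-total scaling, at 0.28 (adjusted p = 0.0606). The CT26 step from day 8 to day 11, 0.39 with adjusted p = 0.0159, was lost when day 8 replicate 2 was left out (0.28, adjusted p = 0.103), and likewise day 11 replicate 2 (0.29, adjusted p = 0.0734).

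Cd14, which binds lipopolysaccharide and passes it to Tlr4, fell first and rose later in CT26, and in B16 it was high at days 4 and 11 and low at day 8. In CT26 it had 2369, 2249 and 2137 normalized counts at day 0, 1793, 1859 and 1821 at day 4, 3573, 3371 and 3095 at day 8 and 4849, 5350 and 4525 at day 11. In B16 it had 1485, 1424 and 1540 at day 0, 2497 and 2441 at day 4, 1160, 1174 and 1262 at day 8 and 3126, 3185 and 2987 at day 11. No 2 days overlapped in either model. The log2 change against day 0 in CT26 was -0.30 ± 0.08 at day 4 (adjusted p = 0.0245), 0.57 ± 0.08 at day 8 (adjusted p = 4.85e-05) and 1.12 ± 0.08 at day 11 (adjusted p = 6.38e-09). In B16 it was 0.74 ± 0.06 (adjusted p = 8.88e-06), -0.31 ± 0.06 (adjusted p = 0.000611) and 1.06 ± 0.06 (adjusted p = 1.98e-07) on the same days. The fall at CT26 day 4 was no longer called without day 0 replicate 1 or 2 or any 1 of the 3 day 4 libraries, at -0.32 to -0.27 (adjusted p 0.064 to 0.097).

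**Figure D3:**
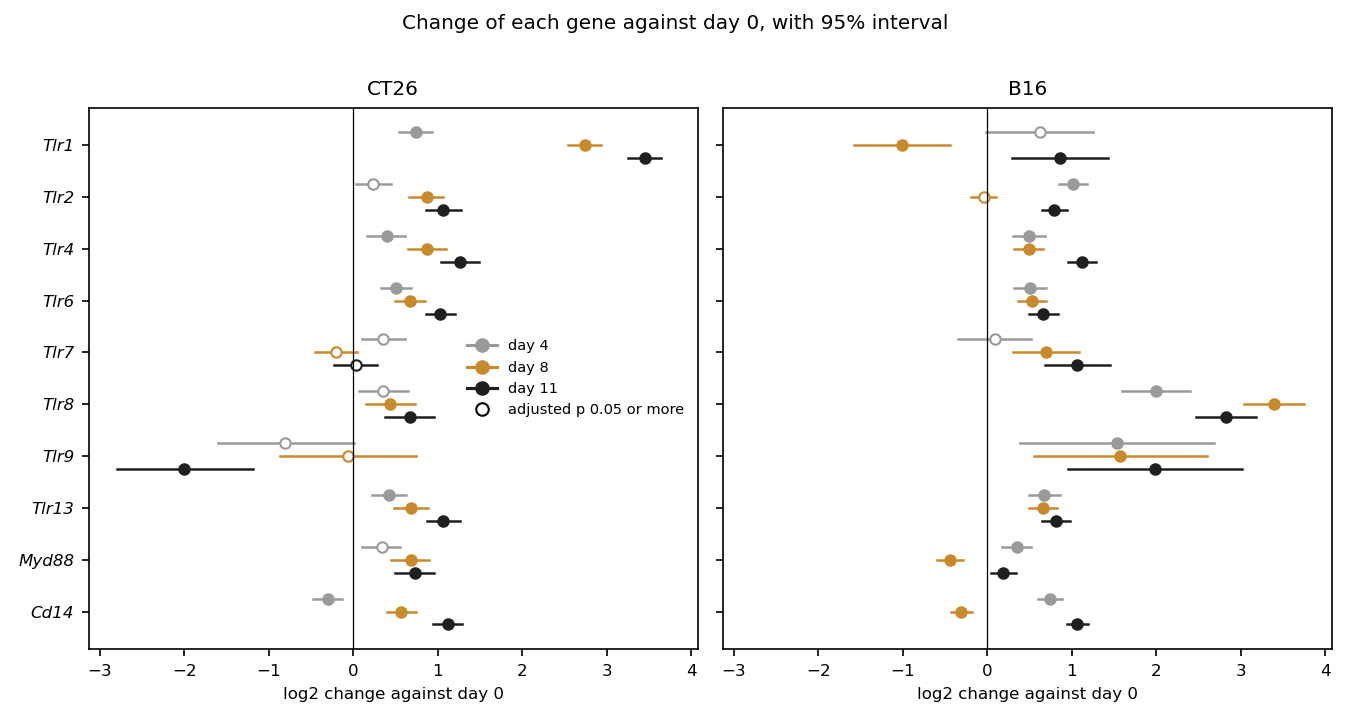
Log2 change of each gene against day 0 of its model at days 4, 8 and 11, with the 95% interval as a bar and filled points where the adjusted p was under 0.05. Tlr1 at day 8 lay at 2.74 in CT26 and at -1.01 in B16, and Tlr8 at day 8 at 0.44 in CT26 and at 3.39 in B16.

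Among the endosomal receptors, Tlr13, which in mice recognises bacterial ribosomal RNA, was the most abundant and rose in both models. The CT26 libraries held 5250 to 5665 normalized counts at day 0, 6823 to 7667 at day 4, 8169 to 9028 at day 8 and 10102 to 12961 at day 11, with no overlap. Its B16 libraries held 3755 to 3989 at day 0, 5716 and 6529 at day 4, 5527 to 6784 at day 8 and 6459 to 6965 at day 11, and the last 3 days overlapped. At days 4, 8 and 11 Tlr13 changed by 0.43, 0.69 and 1.07 (log2) in CT26. The B16 changes were 0.67, 0.66 and 0.81, with an SE of 0.08 to 0.09 and an adjusted p between 8.02e-08 and 0.00789 over both models. The CT26 step from day 8 to day 11, 0.38 with adjusted p = 0.00923, was lost without day 8 replicate 2 (0.33, adjusted p = 0.0565), while that from day 4 to day 8, 0.26 with adjusted p = 0.0791, was called without day 11 replicate 1 (adjusted p = 0.0142) or replicate 2 (adjusted p = 0.0278). The B16 step from day 8 to day 11, 0.15 with adjusted p = 0.133, was called without day 8 replicate 1 (0.24, adjusted p = 0.0203).

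Tlr8, which in humans recognises single-stranded RNA, had the largest rise of the 10 genes in B16. In B16 it had 53.2, 60.5 and 45.3 normalized counts at day 0, 225 and 203 at day 4, 697, 573 and 447 at day 8 and 383, 331 and 429 at day 11. No day overlapped another, and day 8 was the highest. The log2 change against day 0 was 2.00 ± 0.18 at day 4 (adjusted p = 1.21e-05), 3.39 ± 0.16 at day 8 (adjusted p = 4.53e-08, 10.5-fold) and 2.82 ± 0.16 at day 11 (adjusted p = 3.32e-07). The 8 non-classical monocyte markers in B16 summed to 15989 to 16750 at day 0, 18273 and 18299 at day 4, 23700 to 27918 at day 8 and 22128 to 24071 at day 11, and like Tlr8 they were lowest at day 0. In CT26 they summed to 18570 to 25636 at day 11, against 25338 to 29287 at day 0, while Tlr8 was higher at day 11. The 8 tissue macrophage markers in B16 summed to 671 to 761, 788 and 910, 1361 to 1623 and 700 to 825 at days 0, 4, 8 and 11. Like Tlr8 they were highest at day 8, and 4 of them had a mean of 5 or more. The part of these cell types in the Tlr8 result, and that of the eosinophil and platelet markers given above, was not tested. Between days 4 and 8, a step that leaves out day 0, Tlr8 in B16 rose by 1.40 ± 0.18 (adjusted p = 0.000188). The fall between days 8 and 11, -0.57 with adjusted p = 0.0168, was lost without day 8 replicate 1 (-0.42, adjusted p = 0.0736), day 8 replicate 2 (-0.56, adjusted p = 0.0543) or day 11 replicate 2 (-0.47, adjusted p = 0.077). In CT26 Tlr8 had 467, 660.1 and 634 at day 0, 779, 704 and 754 at day 4, 822, 677 and 876 at day 8 and 765, 1070 and 965 at day 11. Every later CT26 library was above all day 0 libraries, and the later days overlapped. The CT26 changes were 0.36 ± 0.14 (adjusted p = 0.1), 0.44 ± 0.14 (adjusted p = 0.0241) and 0.67 ± 0.14 (adjusted p = 0.000629). The day 8 call was lost without day 0 replicate 1 (0.28, adjusted p = 0.133), day 8 replicate 1 (0.41, adjusted p = 0.0796) or day 8 replicate 3 (0.36, adjusted p = 0.116), and with same-total scaling (0.26, adjusted p = 0.101). Without day 11 replicate 1, day 4 was called at 0.36 (adjusted p = 0.0315) and the step from day 8 to day 11 at 0.37 (adjusted p = 0.0361).

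Tlr7, the neighbour of Tlr8 on the X chromosome and a receptor for single-stranded RNA, rose late in B16 and was not called against day 0 in CT26. In B16 it had 147, 115 and 168 normalized counts at day 0, 143 and 158 at day 4, 266, 222 and 209 at day 8 and 333, 227 and 346 at day 11. Days 8 and 11 lay above days 0 and 4. The log2 change was 0.09 ± 0.20 (adjusted p = 0.771), 0.70 ± 0.18 (adjusted p = 0.00505) and 1.06 ± 0.18 (adjusted p = 0.000478) at days 4, 8 and 11. In CT26 it had 376, 472 and 388 at day 0, 544, 500.3 and 540 at day 4, 410, 289 and 381 at day 8 and 406, 435 and 416 at day 11. Day 4 lay above the other 3 days, which overlapped. The CT26 changes were 0.36 (95% interval 0.11 to 0.62, adjusted p = 0.0584), -0.20 (-0.45 to 0.05, adjusted p = 0.223) and 0.03 (-0.22 to 0.28, adjusted p = 0.843), and from day 4 to day 8 Tlr7 fell by 0.57 (adjusted p = 0.00345). Day 4 was called without day 0 replicate 2 (0.47, adjusted p = 0.041), day 8 replicate 2 (0.36, adjusted p = 0.029) or day 11 replicate 1 (0.36, adjusted p = 0.0299). The B16 rise from day 4 to day 8, 0.61 with adjusted p = 0.0381, was lost without day 0 replicate 1, either day 4 library, or day 8 replicate 1 or 2 (0.51 to 0.69, adjusted p 0.0508 to 0.162). The B16 step from day 8 to day 11, 0.36 with adjusted p = 0.133, was called without day 11 replicate 2 (0.56, adjusted p = 0.0289). The ratio of Tlr8 to Tlr7 per kb was 0.439 ± 0.15 at day 0 of B16, 1.62 ± 0.23 at day 4, 2.79 ± 0.3 at day 8 and 1.46 ± 0.18 at day 11 (SD, n = 3, 2, 3 and 3). In CT26 it was 1.62 ± 0.22, 1.61 ± 0.021, 2.53 ± 0.21 and 2.53 ± 0.34 (n = 3).

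Tlr9, the receptor for unmethylated CpG DNA, was the least abundant of the 10. At day 11 it was lower than at day 0 in CT26 and higher in B16. In CT26 it had 24.8, 28.2 and 44.8 normalized counts at day 0, 17.2, 14.1 and 22.9 at day 4, 32.0, 32.7 and 26.5 at day 8 and 14.4, 3.45 and 6.90 at day 11. In B16 it had 6.19, 13.3 and 19.9 at day 0, 65.1 and 20.1 at day 4, 25.5, 50.6 and 40.6 at day 8 and 38.2, 69.1 and 47.1 at day 11. The CT26 libraries of day 11 lay below those of days 0 and 8, and every later B16 library lay above day 0, 1 of day 4 by little. The log2 change in CT26 was -0.80 ± 0.38 at day 4 (adjusted p = 0.182) and -0.06 ± 0.38 at day 8 (adjusted p = 0.933), and at day 11 Tlr9 fell by 2.00 ± 0.38 (adjusted p = 0.000342). In B16 it was 1.53 ± 0.53 (adjusted p = 0.0386), 1.57 ± 0.47 (adjusted p = 0.0128) and 1.98 ± 0.47 (adjusted p = 0.00467). The B16 day 4 call was lost without day 4 replicate 1 (0.71, adjusted p = 0.414), day 0 replicate 1 (1.11, adjusted p = 0.127), day 0 replicate 2 (1.61, adjusted p = 0.062) or day 11 replicate 3 (1.53, adjusted p = 0.054), and the day 8 call with day 0 replicate 1 left out (1.15, adjusted p = 0.0595) and likewise with day 8 replicate 2 (1.36, adjusted p = 0.0546). B cells and plasmacytoid dendritic cells are known for high Tlr9. The B cell sums given above were lower at day 11 than at day 0 of CT26, as Tlr9 was, and the 7 plasmacytoid dendritic cell markers, none at 0 in all libraries, summed to 901 to 1024 at day 11 of CT26, against 1247 to 1678 at day 0. The eosinophil sums given above were lower at that day too. Likewise, the 6 natural killer cell markers, of which Klra8 was at 0, summed to 2.3 to 6.31 at day 11 of CT26, against 28.85 to 40.68 at day 0. In B16, where Tlr9 rose, the B cell sums were lower at day 11 than at day 0 and the plasmacytoid sums were 1102 to 1271 at day 11, against 1089 to 1186 at day 0. Of the 7 plasmacytoid markers, 3 had a mean of 5 or more. The classical monocyte and platelet sums given above were higher at day 11 than at day 0 of B16, as Tlr9 was. The part of these cells in the Tlr9 result was not tested.

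Myd88, the adaptor of all these receptors, rose in CT26 and fell at day 8 in B16. In CT26 it had 7081, 7030.0 and 6643 normalized counts at day 0, 8794, 9087 and 8330 at day 4, 10431, 11182 and 11545 at day 8 and 9352, 13189 and 12192 at day 11. Every later library was above day 0, and day 11 overlapped day 8. In B16 it had 9486, 10395 and 11255 at day 0, 12180 and 14352 at day 4, 7651, 7546 and 7737 at day 8 and 11700, 11818 and 11997 at day 11. Day 8 lay below all other days, and days 4 and 11 lay above day 0. The log2 change in CT26 was 0.34 ± 0.11 (adjusted p = 0.054), 0.68 ± 0.11 (adjusted p = 0.000147) and 0.73 ± 0.11 (adjusted p = 2.81e-05) at days 4, 8 and 11. In B16 it was 0.35 ± 0.08 (adjusted p = 0.00377), -0.44 ± 0.07 (adjusted p = 0.000189) and 0.19 ± 0.07 (adjusted p = 0.0389). The B16 day 11 call was lost with same-total scaling (0.06, adjusted p = 0.534), with TMM factors, edgeR or limma-voom (0.18 each), with no filter on low values (0.19), and without day 0 replicate 1 or 2, day 8 replicate 2, or any 1 of the 3 day 11 libraries (0.13 to 0.20, adjusted p 0.055 to 0.17). The CT26 rise from day 4 to day 8, 0.34 with adjusted p = 0.0452, was lost without any 1 of the 9 libraries of days 0, 4 and 8 (0.30 to 0.38, adjusted p 0.0549 to 0.153). CT26 day 4 was called without day 11 replicate 1 (adjusted p = 0.00124) or replicate 2 (adjusted p = 0.0225), and the step from day 8 to day 11, 0.05 with adjusted p = 0.772, without day 11 replicate 1 (0.20, adjusted p = 0.0446).

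Between neighbouring later days, 5 of the 10 genes were higher and 1 lower at day 8 than at day 4 in CT26 (13.4% of all genes called, 7.42% higher and 5.96% lower). In B16 2 were higher and 4 lower (26.7% called, 12.7% higher and 14.1% lower). The 4 that fell in B16 were Tlr1 (-1.62), Tlr2 (-1.06), Cd14 (-1.04) and Myd88 (-0.79). In CT26 the same 4 were all higher on that step, by 2.00, 0.62, 0.87 and 0.34. At day 11, 5 were higher and 1 lower than at day 8 in each model. Of all genes 20.9% were called on that step in CT26, 10.9% higher and 9.94% lower, and 36.2% in B16, 18.7% higher and 17.4% lower. Same-total scaling moved the share of called genes that were higher on the first step to 40.2% in CT26, against 55.5% as deposited, and to 74.9% in B16, against 47.3%. On the second it moved to 32.7% in CT26, against 52.4%, and to 18.5% in B16, against 51.8%, and with TMM factors to 40.3% in CT26. The medians of all genes under same-total scaling were -0.07 and -0.10 for the CT26 steps and 0.14 and -0.30 for the B16 steps. The 4 genes named kept their directions on the B16 steps.

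The course of Tlr1, Tlr2, Cd14 and Myd88 in B16 ran beside that of type I interferon response genes, some of which, like Oasl2 and Zbp1, encode antiviral proteins. The summed level of 20 such genes in B16 was 78514 to 123972 normalized counts at day 0, 142360 and 159593 at day 4, 75053 to 76066 at day 8 and 169208 to 178313 at day 11. The sum and the 4 genes were all higher at day 11 than at day 0, and all had their lowest median at day 8. The 4 are the genes that fell from day 4 to day 8 of B16, so a low at day 8 partly follows from that choice. All 10 receptor and partner genes were higher at day 11 than at day 0 of B16. B16 day 0 replicate 3 had the highest sum of its day, and the highest Tlr1, Tlr2, Myd88 and Cd14. Tlr4, Tlr7, Tlr9 and Tlr13 were also highest of that day in this library, while Tlr6 and Tlr8 were not. Other lists had a like course in B16. The 10 pathway transcription factors summed to 27142 to 41930 at day 0, 35705 and 41261 at day 4, 22946 to 23238 at day 8 and 42932 to 45664 at day 11, with the highest day 0 value again in a single library. The 12 endosomal trafficking genes summed to 28251 to 31376, 29948 and 33083, 22164 to 22829 and 31538 to 32317. The neutrophil sums given above were lowest at day 8 and highest at day 11 too, and the platelet and erythroid sums were highest at day 4, as Tlr2 and Myd88 were on average. The part of any of these in the course of the 4 genes was not tested. In CT26 the same 20 interferon genes summed to 41445 to 41625 at day 0, 78546 to 79160 at day 4, 69354 to 80216 at day 8 and 47184 to 68162 at day 11. There the sum was highest at days 4 and 8, while Cd14 was lowest at day 4, and Tlr1 and Cd14 were highest at day 11. Of the 20 genes, 19 rose and 0 fell at day 4 of CT26, 15 rose and 0 fell at day 8, and 9 rose and 5 fell at day 11. In B16 14 rose and 0 fell at day 4, 1 rose and 10 fell at day 8, and 19 rose and 0 fell at day 11. Shares of all genes called on those days were 10.9%, 26.9% and 50.3% in CT26 and 35.8%, 56.0% and 45.7% in B16. Oasl2, for example, changed by 2.20 at day 8 of CT26 (adjusted p = 1.33e-09) and by -0.33 at day 8 of B16 (adjusted p = 0.0281). On the same day Zbp1 changed by 2.50 in CT26 and -0.71 in B16 (adjusted p = 2.71e-09 and 0.0397), and Stat2, a transcription factor of the interferon response, by 1.65 and 0.02 (adjusted p = 9.97e-08 and 0.959).

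**Figure D4:**
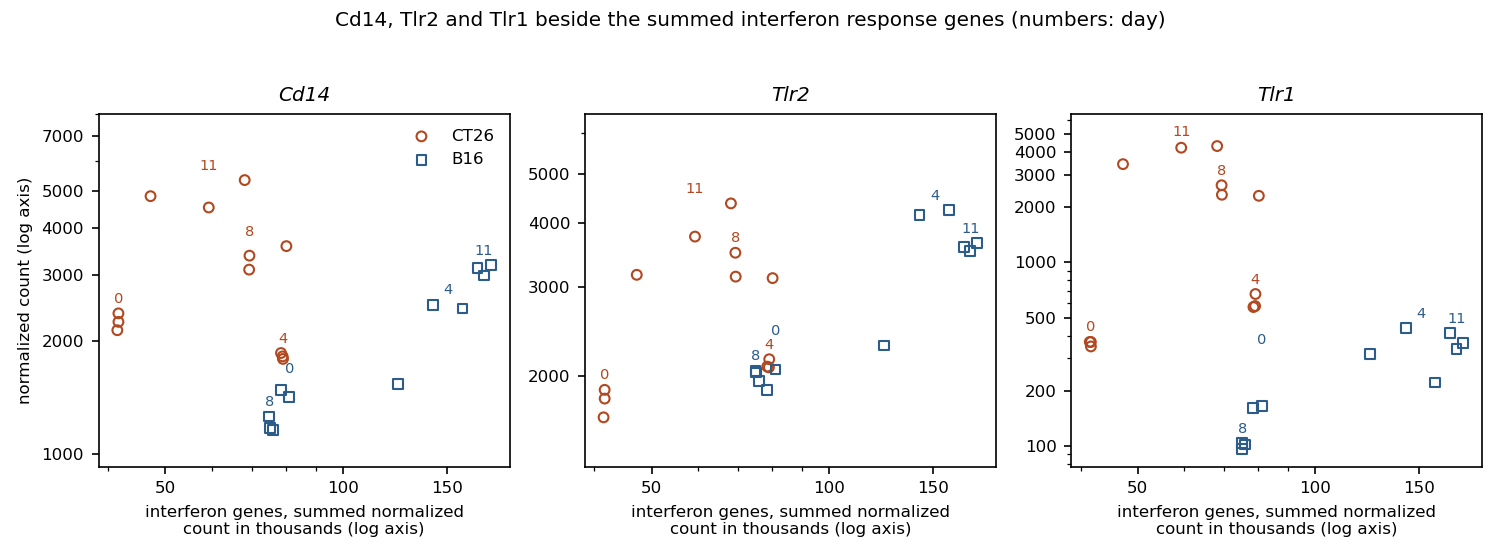
Normalized count of Cd14, Tlr2 and Tlr1 (log axis) against the summed normalized count of 20 interferon response genes (log axis) in each library, CT26 as circles and B16 as squares, with the day printed beside each group. In B16 the day 4 and day 11 libraries lie at high sums and high Cd14 and Tlr2, and in CT26 the highest Cd14 and Tlr1 of day 11 lie at middling sums.

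The difference between the models was tested directly at days 8 and 11 with edgeR's quasi-likelihood test on recovered reads. It was the CT26 response minus the B16 response over 11033 genes, from 8 CT26 and 11 B16 libraries. The CT26 libraries were day 0 replicates 1 and 2, day 4 replicate 1, day 8 replicates 2 and 3 and day 11 replicates 1, 2 and 3. At day 8, 4 of the 10 genes were higher and 2 lower in the CT26 response (41.7% of all genes called, 19.4% higher and 22.3% lower). Tlr1 differed by 3.87 ± 0.37 (adjusted p = 5.8e-07), Myd88 by 1.11 ± 0.16 (adjusted p = 4.18e-05), Tlr2 by 0.88 ± 0.16 (adjusted p = 0.000258) and Cd14 by 0.78 ± 0.11 (adjusted p = 4.59e-05). Tlr8 differed by -2.98 ± 0.30 (adjusted p = 9.8e-07) and Tlr7 by -1.05 ± 0.26 (adjusted p = 0.0037). Tlr1, Tlr2, Cd14 and Myd88 thus had the higher response in CT26, and Tlr7 and Tlr8 the lower one. Tlr13 differed by -0.02, with a 95% interval from -0.34 to 0.30, and Tlr6 by 0.12, with an interval from -0.19 to 0.43. Tlr9 differed by -1.39, with an interval from -2.93 to 0.14 (adjusted p = 0.136). Tlr4 differed by 0.34 (adjusted p = 0.128) and was called without CT26 day 8 replicate 2 (0.54, adjusted p = 0.025).

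At day 11, 3 of the 10 were higher and 3 lower in the CT26 response (34.4% called, 17.6% higher and 16.7% lower). Tlr1 differed by 2.69 ± 0.34 (adjusted p = 1.49e-05), Tlr9 by -3.55 ± 0.74 (adjusted p = 0.00145), Tlr8 by -2.11 ± 0.28 (adjusted p = 2.97e-05) and Tlr7 by -1.09 ± 0.25 (adjusted p = 0.00257). Myd88 differed by 0.53 ± 0.15 (adjusted p = 0.0137), and without CT26 day 0 replicate 2 its adjusted p was 0.0506 at the same value. Tlr6 differed by 0.38 ± 0.14 (adjusted p = 0.0438), a call lost in 12 of 19 fits that left out 1 library each, at 0.31 to 0.40 (adjusted p 0.0551 to 0.118): those without CT26 day 0 replicate 1 or 2, CT26 day 11 replicate 2 or 3, B16 day 8 replicate 1 or 2, or any 1 library of B16 day 0 or day 11. With the replicate number as a block the Tlr6 difference was 0.32 (adjusted p = 0.0879), and the call was lost too with DESeq2 (0.38, adjusted p = 0.0511) and with no filter on low counts (0.26, adjusted p = 0.18). Cd14 differed by 0.03, with a 95% interval from -0.20 to 0.26. Tlr2 at 0.25 (adjusted p = 0.212) and Tlr13 at 0.25 (adjusted p = 0.184) were called without CT26 day 11 replicate 1, at 0.36 (adjusted p = 0.0254) and 0.34 (adjusted p = 0.0492). Day 4 was not tested between the models, since 1 CT26 library of that day had recovered reads.

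**Figure D5:**
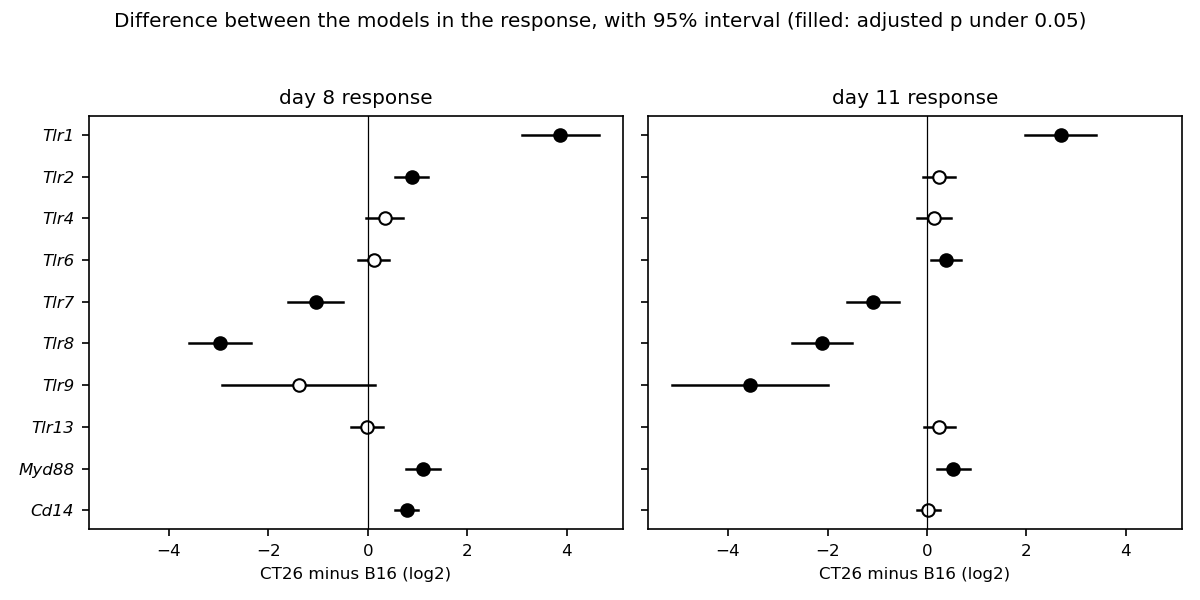
CT26 response minus B16 response on the log2 scale at days 8 and 11 for each gene, with the 95% interval as a bar and filled points where the adjusted p was under 0.05. Tlr1 lay at 3.87 and 2.69, and Tlr8 at -2.98 and -2.11.

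Levels between genes were compared as normalized counts per kb of exon, within a model. Myd88 was the highest of the 10 at every day, with 2686 ± 93, 3392 ± 148, 4291 ± 221 and 4494 ± 773 per kb at days 0, 4, 8 and 11 of CT26 and 4029 ± 343, 5150 ± 596, 2968 ± 37 and 4596 ± 57.9 in B16. Cd14 and Tlr13 came next at every day of CT26, at 1053 to 2834 per kb on average, and their libraries overlapped except at day 4, where Tlr13 was higher. In B16 they came next as well, at 692 to 1790, but Tlr2 overlapped Tlr13 at day 4 and Cd14 at day 8. Tlr9 was the lowest at every day of both models, at 2.38 to 14.8 per kb on average. Tlr1 changed its place most in CT26, to place 5 at day 11, where it overlapped Tlr2, against place 8 at day 0, where it overlapped Tlr7. In B16 Tlr8 was in place 7 at day 8 with 160 ± 34.8 per kb, where it overlapped Tlr4, against place 9 at day 0 with 14.8 ± 2.13. Tlr1 was in place 9 at day 8 of B16 with 30.1 ± 1.15.

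Other genes of the pathway were taken from lists in general use for their roles. Their counts stand beside 10.9%, 26.9% and 50.3% of all genes called at days 4, 8 and 11 of CT26. In B16 that share was 35.8%, 56.0% and 45.7%. Several lists lie near these shares, and their counts are a description only. Of the 4 other Toll-like receptors, the double-stranded RNA receptor Tlr3 and the profilin receptor Tlr11 had a mean under 5 in each model and were not tested. Tlr5, the flagellin receptor, was called at no day against day 0 in CT26 and rose in B16 by 0.76, 1.83 and 1.18 at days 4, 8 and 11 (adjusted p = 0.0223, 1.22e-05 and 0.000627). Tlr12, tested in B16 alone, had 3.72, 6.15 and 25.4 normalized counts at day 0, 99.1 and 30.6 at day 4, 22.9, 50.6 and 48.2 at day 8 and 10.8, 20.7 and 20.8 at day 11. It rose by 2.55 at day 4 and 2.03 at day 8 (adjusted p = 0.0117 and 0.0134). The library with the highest Tlr12 at day 0, replicate 3, and that at day 4, replicate 1, also had the highest platelet sum of its day, 6910 and 61980. The part of platelets in the Tlr12 result was not tested. Among 7 surface co-receptors and ligand carriers 1, 1 and 1 rose in CT26 and 0, 0 and 1 fell at days 4, 8 and 11, and 2, 3 and 5 rose and 0, 1 and 0 fell in B16. The carrier Lbp, which loads lipopolysaccharide onto Cd14, had 16.8 to 37.3 normalized counts at day 0 of CT26, 54.4 to 60.7 at day 4, 185 to 188 at day 8 and 487 to 514 at day 11. Those days did not overlap, and the change at day 11 was 4.31 (adjusted p = 2.2e-11). In B16 Lbp changed by 1.23 at day 11 (adjusted p = 0.000645), and the integrin genes Itgam and Itgb2 by 0.56 and 0.63 (adjusted p = 3.86e-05 and 3.19e-06). The difference between the models in the Lbp response was 2.24 at day 8 and 2.96 at day 11 (edgeR, adjusted p = 0.000118 and 7.77e-06).

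Of the 4 other adaptors, 3 were tested. Tirap, which bridges Tlr2 and Tlr4 to Myd88, rose in CT26 by 0.39, 0.55 and 0.83 (adjusted p = 0.0384, 0.0019 and 1.6e-05) and in B16 by 0.30 at day 8 and 0.52 at day 11 (adjusted p = 0.00989 and 0.000366). Of Ticam1 and Ticam2, the adaptors of the Myd88-independent branch, Ticam2 was higher (0.95, adjusted p = 0.0125) and Ticam1 lower (-0.34, adjusted p = 0.0474) at day 11 of CT26, and neither was called against day 0 in B16. Of 12 genes that traffic or process endosomal receptors, 0, 5 and 6 rose and 0, 1 and 2 fell in CT26, and 3, 4 and 4 rose and 2, 7 and 1 fell in B16. Shares of all genes called on those days were 10.9%, 26.9% and 50.3% in CT26 and 35.8%, 56.0% and 45.7% in B16. Unc93b1, the chaperone that carries nucleic acid receptors to endosomes, changed by -0.55 at day 8 of B16 (adjusted p = 4.57e-06) and was not called in CT26. The cathepsin genes Ctsb and Ctss changed by 1.14 and 1.23 at day 8 of CT26 (adjusted p = 7.29e-06 and 4.81e-05) and by -0.64 and -0.67 at day 8 of B16 (adjusted p = 3e-06 and 0.0109). Both differed between the models at that day, by 1.69 and 1.83 (edgeR, adjusted p = 5.92e-06 and 0.000766).

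Of 16 kinases and ubiquitin ligases below Myd88, 2, 5 and 4 rose and 0, 4 and 4 fell in CT26, and 3, 6 and 5 rose and 2, 0 and 3 fell in B16. Beside the lists of this paragraph, 10.9%, 26.9% and 50.3% of all genes were called in CT26. The B16 shares were 35.8%, 56.0% and 45.7%. Irak4, the first kinase that Myd88 recruits, rose in CT26 by 0.31, 0.52 and 0.95 (adjusted p = 0.0381, 0.000401 and 1.94e-07), and in B16 by 0.35 at day 4 and 0.35 at day 11, with -0.09 at day 8 (adjusted p = 0.000901, 0.000285 and 0.161). Irak2 changed by -0.82 at day 11 of CT26 (adjusted p = 4.73e-07) and Pik3ap1, an adaptor that limits the response, by 2.29 at day 8 of B16 (adjusted p = 1.29e-07). Of 11 tested negative regulators 1, 2 and 1 rose and 2, 3 and 3 fell in CT26, and 4, 6 and 5 rose and 1, 2 and 0 fell in B16. Dusp1, a phosphatase of MAP kinases, changed by -1.49 at day 11 of CT26 and by 1.04 at day 11 of B16 (adjusted p = 2.6e-08 and 4.3e-06). Tnfaip3, which edits ubiquitin on the pathway, changed by -0.80 in CT26 at that day (adjusted p = 6.06e-07) and by 0.20 in B16 (adjusted p = 0.286). Tnip1, its partner protein, changed by 0.03 and 0.67 at day 11 of CT26 and B16 (adjusted p = 0.809 and 1.89e-05). Of 10 transcription factors, 3, 5 and 3 rose and 0, 1 and 2 fell in CT26, and 5, 3 and 5 rose and 0, 4 and 0 fell in B16. Nfkb1 rose by 0.36 at day 11 of CT26 and 0.89 at day 11 of B16 (adjusted p = 0.0023 and 4e-07), and Irf5, which acts below Myd88, changed by -0.68 and 0.00 (adjusted p = 2.04e-06 and 0.95). Rel, an NF-kappa B subunit, changed by 0.31 at day 8 of CT26 and by 2.23 at day 8 of B16 (adjusted p = 0.276 and 6.74e-06).

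Most of the tested inducible targets of the pathway fell in CT26. Of 11 tested of 16, 1, 0 and 0 rose and 7, 8 and 7 fell at days 4, 8 and 11 of CT26, with a median log2 change of -0.90, -0.81 and -0.68. In B16 1, 3 and 5 rose and 6, 4 and 1 fell, with medians of -0.53, -0.14 and 0.47. Beside the lists of this paragraph, 10.9%, 26.9% and 50.3% of all genes were called in CT26. The B16 shares were 35.8%, 56.0% and 45.7%. Ptgs2, the inducible prostaglandin synthase, had 2624 to 3077 normalized counts at day 0 of CT26, 598 to 745 at day 4, 628 to 860 at day 8 and 48.3 to 59.8 at day 11. Its day 11 change was -5.70 (adjusted p = 2.76e-15), and in B16 it was 0.87 (adjusted p = 0.000467). Tnf and Nfkbiz changed by -1.21 and -0.93 at day 11 of CT26 and by 0.47 and 0.98 at day 11 of B16 (adjusted p = 2.09e-07, 9.16e-08, 0.00325 and 9.89e-07). The difference between the models at day 11 was -6.63 for Ptgs2, -1.64 for Tnf and -1.93 for Nfkbiz (edgeR, adjusted p = 9.87e-13, 1.73e-06 and 1.13e-08). Of 6 tested genes for endogenous ligands 0, 4 and 5 rose and none fell in CT26, and 0, 0 and 2 rose and 0, 1 and 1 fell in B16. Saa3, an acute-phase protein, was at 0.884 to 1.99 at day 0 of CT26, 0 to 2.01 at day 4, 88.8 to 288 at day 8 and 369 to 2313 at day 11, and at 2.19 to 18.3 in B16. Vcan, a matrix proteoglycan, changed by 3.30 at day 11 of CT26 and 0.70 at day 11 of B16 (adjusted p = 3.19e-06 and 0.39). S100a9, a subunit of calprotectin and a Tlr4 ligand, changed by 0.68 at day 8 of CT26 and -0.52 at day 8 of B16 (adjusted p = 0.0162 and 4.47e-05), and at day 11 by 0.88 in CT26 and 0.26 in B16 (adjusted p = 0.00138 and 0.00887). Of 4 tested interleukin-1 family receptor genes that also use Myd88, 3, 3 and 3 rose and 0, 1 and 1 fell in CT26, and 2, 2 and 3 rose and 0, 0 and 1 fell in B16. Il1rap, the shared subunit of the interleukin-1 and interleukin-33 receptors, rose by 1.57 at day 11 of CT26 and 1.36 at day 11 of B16 (adjusted p = 3.47e-09 and 1.64e-07), and Il1rl1, the interleukin-33 receptor, changed by -2.61 and -0.70 (adjusted p = 9.74e-08 and 0.0125). Il18r1, a subunit of the interleukin-18 receptor, rose by 1.33 and 0.67 (adjusted p = 3.54e-07 and 0.000241).

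The genes whose course was most like that of each receptor were found by the smaller of the Pearson r over 12 CT26 and over 11 B16 libraries, among 10989 genes tested in both tables. Libraries of a day share its changes, and with so many genes a high r is a description only. For Tlr1 they were Atxn10 (r 0.99 and 0.98) and Flot2 (0.98 and 0.98). For Tlr2 they were Steap4 (0.99 and 0.99) and Rufy4 (0.99 and 0.98), and for Cd14 Trem1 (0.97 and 0.98), a receptor that amplifies Toll-like receptor signals, and Ets2 (0.96 and 0.99). Tlr4 ran with Picalm (0.98 and 0.99) and Osbpl9 (0.96 and 0.95), Tlr6 with the chemokine receptor gene Ccr1 (0.99 and 0.98) and Pdlim5 (0.98 and 0.97), and Tlr13 with Pdlim5 (0.98 and 0.98) and Arnt (0.98 and 0.98). Tlr8 ran with 4932438A13Rik (0.98 and 0.97), and Myd88 with Ppp1r3d (0.98 and 0.98) and Cdkn2d (0.96 and 0.98). The best values were lower for Tlr7, with Peli1 (0.74 and 0.87) and Zfp729a (0.74 and 0.81), and for Tlr9, with Ehd3 (0.84 and 0.86) and Cat (0.83 and 0.83).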

How the data were processed

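Poly-A RNA sequencing was done on 23 libraries of blood immature myeloid cells. Values are the signal that the authors deposited as normalized counts, in a table for each model. The submitters' processing notes name DESeq2 1.6.3, HTSeq 0.6.1p1, TopHat2 2.0.10, cutadapt and build mm10, without their roles. The annotation, strand setting and handling of multiply mapped reads: not given in the sources used here. Within 0.001, 100% of the values of a library were whole multiples of 1 step, so they are reads divided by a factor, which spans 1.3 times over the CT26 libraries and 1.464 times over those of B16.

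Each model was fitted with limma 3.58.1 (R 4.3.3, trend) on log2(value + 1), which understates changes of low genes. The fit held a mean per day and took genes averaging 5 or more. Tests were 2-sided, adjusted by Benjamini and Hochberg's method over all genes tested and called under 0.05. Reads recovered from the steps served edgeR 4.0.16 with TMM between the models. Alternative tests on them within a model were edgeR, limma-voom and DESeq2 1.42.0. For 4 CT26 libraries whose step lies near 1 the recovery was not accepted, which left 8. Both kinds of fit were tried on simulated data, with 1 spread setting for all genes and all 12 CT26 libraries. The fit between the models held 8 of them, so no conclusion is drawn from the simulation. Replicate libraries whose reads were compared differed by more than sampling noise.

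The 10 genes and all lists were chosen with earlier results of these data known. All 10 are named whether called or not. From each pathway list, up to 3 genes are named, those with the smallest adjusted p against day 0, and for each of the 10 the 2 genes most like it, of which 1 is not reported here. Exon lengths are the union of exons in GENCODE vM21 on GRCm38 (mm10). Alternatives were other pseudocounts, filters and scalings, fits on the compared days, the replicate block, count tests and leaving out each library. Matplotlib 3.10.9 under python 3.11.15 drew the figures.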

Additional observations from a re-analysis of the deposited data

Results flagged for a closer look

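The CT26 response and the B16 response differed for these genes by edgeR's test of the difference itself, as CT26 minus B16 on the log2 scale. At day 8 the differences were 3.87 for Tlr1, 0.88 for Tlr2, -1.05 for Tlr7, -2.98 for Tlr8, 1.11 for Myd88 and 0.78 for Cd14. At day 11 they were 2.69 for Tlr1, 0.38 for Tlr6, -1.09 for Tlr7, -2.11 for Tlr8, -3.55 for Tlr9 and 0.53 for Myd88. Their errors and adjusted p-values stand in the report. That of Tlr6 lost its call with the replicate number as a block (0.32, adjusted p = 0.0879) and in 12 of 19 fits that left out 1 library.

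At day 4 every CT26 library of Tlr9 lay below day 0 and every B16 library above it, a difference of -2.33 on the log2 scale. The Tlr9 value rests on B16 day 4 replicate 1, without which the B16 change was 0.71 (adjusted p = 0.414), against 1.53 with it. The other B16 library of day 4 had 20.1 normalized counts, against 19.9 in the highest of day 0. Cd14 was likewise below day 0 in every CT26 library of day 4 and above it in both B16 libraries, a difference of -1.04. Both day 4 differences were not tested.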

How the results depend on the processing

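Over the 10 genes, 2690 values were recomputed under an alternative and none that was called reversed. In 2489 the direction and the side of the threshold held, 112 lost their call, 30 gained one, and 59 that were not called changed sign. For CT26 day 4 against day 0, 5 genes were called, 8 with the compared days only, 1 with edgeR, 2 with DESeq2, 1 with limma-voom and 3 to 9 when libraries were left out one at a time. For CT26 day 8 against day 4 it was 6, and 2 with edgeR, 3 with DESeq2 and 2 with limma-voom. For CT26 day 11 against day 8 it was 6, and 3 with the compared days only, 3 with edgeR, 3 with DESeq2 and 3 with limma-voom. The count tests used 8 of the 12 CT26 libraries, 1 of them at day 4, which is assumed to vary like the others. In B16 and between the models no such count moved by over 1.5 times.

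With the replicate number as a block, the 10 genes gave 5, 8 and 9 calls at days 4, 8 and 11 of CT26 and 8, 9 and 10 in B16, the same numbers as without it. The day 11 difference between the models in Tlr6 lost its call under the block (0.32, adjusted p = 0.0879). Deviations of same-numbered libraries correlated at -0.16 to 0.22 in CT26 and -0.11 to 0.23 in B16, so the numbers were not taken to pair libraries.

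Over all genes, 1235 were called for CT26 day 4 against day 0, 74 with edgeR, 220 with DESeq2, 86 with limma-voom, 2139 with the compared days only, and 626 to 2419 with a library left out. For CT26 day 8 against day 0 it was 3056, and 1418, 1267 and 1518 with the 3 count tests in that order. For CT26 day 11 against day 0 it was 5721, and 3385 with DESeq2. For CT26 day 8 against day 4 it was 1522, then 288, 338 and 321, and 2597 with the compared days only. For CT26 day 11 against day 8 it was 2375, then 996, 814 and 935, 1412 with the compared days only and 1583 without day 8 replicate 1. For B16 day 4 against day 0 it was 4276, and 2782 without day 4 replicate 1. Depth limits Tlr9 most, at 3.45 to 69.1 normalized counts.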
